A study of Mus musculus with 46 samples.

Results

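Control livers of mice were compared with each other, to describe which genes differ most between livers of a single group at a given level of expression and which genes differ together. The 11 control livers were all the columns that the sample titles mark as controls, out of 46 samples in the series. The other 35 samples are liver tumours: 16 driven by a Myc transgene, 8 of that kind after the transgene was switched off with doxycycline, and 11 driven by Myc with the V394D substitution. These tumours were not used here. The controls are labelled as normal liver of the FVB strain. Whether they carried the transgene or its liver-specific driver (LaptTA), and their sex, age, feeding and hour of sampling, are not given in the labels. Each liver is named here by the running number in its title, such as ID125319. What that number stands for is not stated, and nothing says that each liver is from a separate animal, so that the spread measured here is the spread between these samples.

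Values are exonic RPKM (eRPKM: reads over exons, scaled to gene length and to library size), made by the authors from RNA depleted of ribosomal RNA. Whole reads could be recovered from the values, which put the libraries at 5.63 to 8.95 M reads over genes (M stands for 1000000). No 2 libraries agreed within sampling noise: over 55 pairs the lowest chi-square per degree of freedom was 3.33. The kit does not mark strand, so a gene and an antisense gene over it cannot be told apart.

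In the liver, sex differences are large: growth hormone reaches the male liver in pulses and the female liver more evenly, and the pattern sets the level of many cytochrome P450, sulfotransferase and major urinary protein genes. A circadian clock, in which Arntl and Clock drive Per, Cry and Nr1d1 genes that feed back on them, gives daily rhythms to output factors such as Dbp and Tef. Feeding acts through the sterol and fatty acid regulators Srebf2, Srebf1 and Ppara, and infection or injury through acute phase, metal and heat shock genes.

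The hepatocyte markers Hnf4a and Apoa1 were high in all 11 livers, but this did not hold for all such markers. Alb and Cps1 were low in ID128988, as given below. The summed hepatocyte identity list ran from 2132 eRPKM in ID128988 to 3676 in ID141048, with a median of 3473. Hnf4a, a transcription factor that defines hepatocytes, ran from 120 to 151 eRPKM with a median of 136, and Apoa1, an apolipoprotein, from 179 to 274 with a median of 221. Pancreatic Pnlip was listed at 0 in all 11 livers and Ckm of muscle at 0 in all but ID128994, at 0.29. Other members of these lists were not at 0. Of 25 pancreas genes, 6 were at 0 in all livers and 2 reached 1 eRPKM in at least 3 livers, and the list summed to 24.4 to 42.2 eRPKM. Of 15 muscle genes, 2 were at 0 in all livers and 1 reached that level, and the list summed to 2.35 to 4.16 eRPKM. The deposited values have a ceiling for abundant genes. No library went above 1548 to 2182 reads per kb for genes over 500 bp, and 1443 of the 12961 genes kept had a mean over 400 reads per kb. Differences between livers are compressed for such genes.

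Genes were kept when at least 3 livers had 1 eRPKM or more. The spread of a gene was the SD of log2(eRPKM + 0.5) over the 11 livers, divided by the median SD of the 400 genes nearest in mean level. This quotient, the spread ratio, is 1 for a gene as variable as its neighbours in level. A gene was called variable when the ratio was at least 2 and read counting could give less than 50% of its variance. By this rule 981 of 12961 genes, or 7.57%, were variable. It was 48 of 352 genes below 1 eRPKM, 235 of 2977 genes at 1 to 5 eRPKM, 341 of 4726 at 5 to 20, 329 of 4457 at 20 to 100 and 28 of 449 above 100. The median SD was 0.33 log2 units at 1 to 5 eRPKM and 0.19 at 20 to 100 eRPKM, and read counting could give a median of 28.4% of the variance in the first and 8.31% in the second. Small RNA names made up 157 of the 981 genes. They are short and were not described further.

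**Figure D1:**
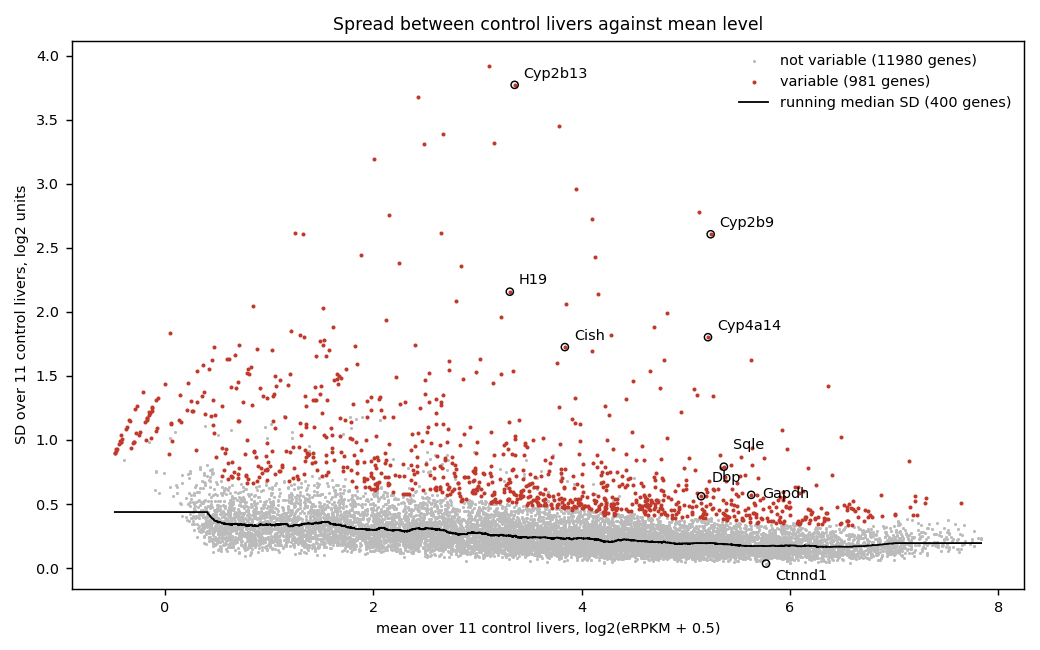
The SD over the 11 control livers (y axis, log2 units) is plotted against the mean level (x axis, log2(eRPKM + 0.5)) for each of 12961 genes. Red points are the 981 variable genes, grey points the rest, and the black line is the running median SD of 400 genes. Cyp2b13 and Cyp2b9 lie far above the line, while Ctnnd1 lies below it.

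The least variable genes above 20 eRPKM were Ctnnd1, Rcbtb1, Ppp6r3, F11r, Usp7 and Dennd4c. Ctnnd1, a catenin of cell junctions, ran only from 52.6 to 56.7 eRPKM with a median of 53.5, an SD of 0.03 log2 units and a ratio of 0.20. Read counting could give 67.7% of its variance, and 99.9% of that of Rcbtb1, which ran from 52.0 to 57.3 eRPKM. Ribosomal protein genes had 0 of 21 members variable, against 7.57% of all genes, with a median ratio of 0.93. So short a list cannot tell 0 from that share. Of the 21, 15 had over 400 reads per kb on average, where the ceiling compresses differences.

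A single liver, ID125322, stood apart. It was the lowest by at least 2-fold for 182 genes and the highest by at least 2-fold for 48, whereas no other liver was lowest in this way for more than 20 genes or highest for more than 10. Of the 182 genes, 88 had provisional or small RNA names and 25 were zinc finger genes named Zfp, of 308 Zfp genes kept. Provisional or small RNA names made up 228 of the 981 variable genes, and their share over all genes kept is not given here. Gapdh, an enzyme of glycolysis with many processed copies in the genome, was at 15 eRPKM there and at 48.3 to 64.6 in the other 10 livers. Gm5424 was at 3.80 there against 94.9 to 126. The first principal component, 29.8% of the variance, weighed on this liver most. Of the 981 variable genes, 253 (25.8%) owed at least 50% of their summed squares to 1 liver, near the 24.5% of all genes kept. For 170 of the 253 this liver was ID125322. Without it 1190 genes were variable, 791 of them from the first count, and the share was 9.21%.

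**Figure D2:**
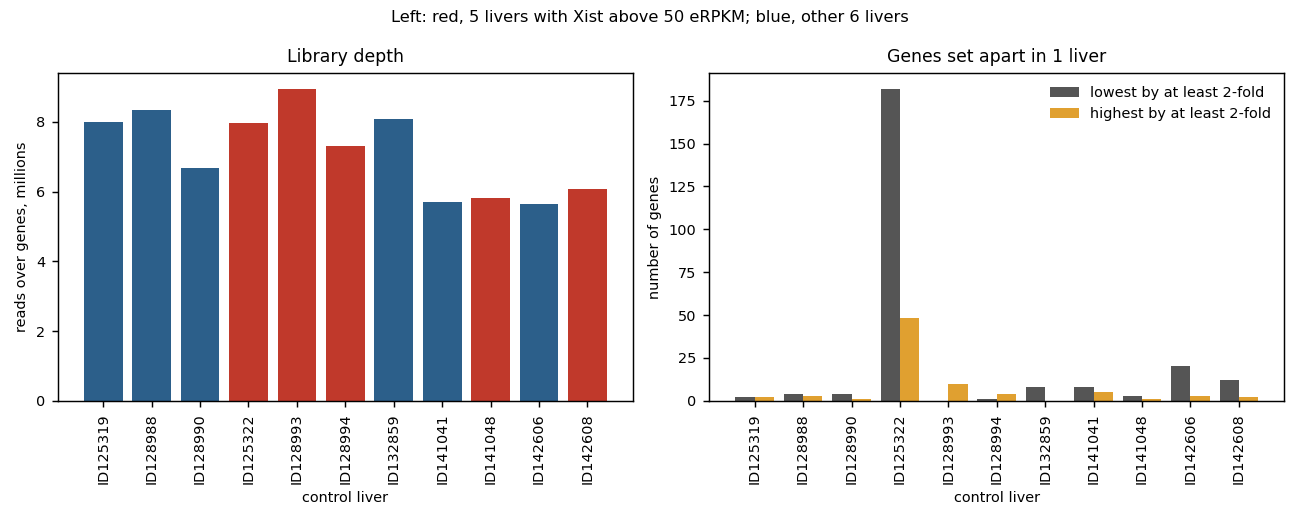
Library depth (left, M reads over genes) and the number of genes that are lowest or highest by at least 2-fold (right) are shown for each of the 11 control livers. The 4 livers with IDs starting with 141 or 142 are the shallowest, at 5.63 to 6.07 M reads, and ID125322 has 182 genes set apart on the low side.

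ID128988 was low for the main secretory and urea cycle products of hepatocytes. Albumin (Alb) was at 85.3 eRPKM there, with a median of 243 and a highest value of 273 in ID125322. Cps1, the first enzyme of the urea cycle, was at 66.3 there against a median of 177, and Trf (transferrin), Gc (vitamin D binding protein) and Fabp1 (fatty acid binding protein) were lowest there too, at 56.7, 59.9 and 58.9 eRPKM. Hepatocyte identity genes had 5 of 21 members variable, with a median ratio of 1.47. Hnf4a was not among them, with a ratio of 0.47. Alb had 712 to 2182 reads per kb over the livers, in the range where the ceiling compresses differences. ID128988 was also lowest in the summed lists of ribosomal protein genes (1438 eRPKM, median 1752) and oxidative phosphorylation (1218, median 1733). Not all sums were low there, and the endothelial list was at 654 with a median of 493. Its library had 8.35 M reads, fewer than only that of ID128993. The part of depth in these low values was not tested.

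Depth has to be kept in view. The 4 livers with IDs starting with 141 or 142 were the 4 shallowest libraries, so depth and ID cannot be told apart. In limma, 1605 genes (12.4%) were associated with library depth at an adjusted p under 0.05, 1285 of them (9.91%) higher and 320 (2.47%) lower in deeper libraries. Of the 320, 252 had over 400 reads per kb on average, against 15 of the 1285. The count was 2675 without ID125322, and between 769 and 915 without any one of ID125319, ID128988, ID128993, ID141041, ID141048 and ID142608. Sinusoidal and other endothelial genes were on the higher side: 16 of 23 rose with depth, as did 7 of 19 Kupffer cell genes. Hepatocyte identity and acute phase genes were on the lower side, with 11 of 21 and 11 of 26 members, of which 10 and 11 had over 400 reads per kb. The balance turned with the scaling: 501 genes were higher and 639 lower with median-ratio scaling, and 94 and 59 with quantile normalisation. Under these 2 scalings 10 and 8 endothelial genes were higher, but 0 Kupffer cell genes, and on the lower side were 13 and 2 hepatocyte identity and 12 and 0 acute phase genes. By block of ID, 5 genes (0.0386%) differed in limma, and 2666 had an unadjusted p under 0.05. The 5 became 0 without ID128990, 1 without ID128993, and 8 without ID125319 or ID125322. Livers with nearby IDs did not differ from others in likeness at the threshold (mean correlation of profiles -0.058 within and -0.103 between blocks, permutation p = 0.639). With log2 Xist as a covariate the means were 0.147 and -0.138 (permutation p = 0.00202). The blocks hold 1 to 4 livers, too few for a correlation within any of them.

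Sex-linked and sex-biased genes had some of the highest spread ratios. Xist, the RNA that silences an X chromosome in female cells, ran from 0.446 to 123 eRPKM with a median of 1.52. It was between 51.4 and 123 in 5 livers (ID125322, ID128993, ID128994, ID141048 and ID142608) and between 0.446 and 1.52 in the other 6. Ddx3y, a Y-linked RNA helicase, was 0 to 0.192 eRPKM in those 5 livers and 38.9 to 53.3 in the other 6. Eif2s3y and Uty, also Y-linked, followed the same split without overlap. The labels give no sex, and the split was read from the data, so values are given by liver and no test was made between the livers on either side.

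Of 51 genes listed as sex-biased in liver, 47 passed the filter on low values and 39 of these were variable, with a median ratio of 6.13 against 1.00 over all genes kept. A gene expressed in only some livers passed this filter through those livers. Sult3a1 and Cyp2b13, a sulfotransferase and a cytochrome P450 typical of female liver, had ratios of 15.2 and 14.9. Sult3a1 was between 107 and 160 eRPKM in the 5 livers with high Xist and between 0 and 10.5 in the other 6. Among the 47 genes, 19 were higher in all 5 livers than in every other liver and 10 were lower. Over all genes kept these shares were 1.48% (192 genes) and 1.18% (153 genes). Of the male-biased genes, Cyp4a12a, a fatty acid hydroxylase, was 2.42 to 11.0 eRPKM in the 5 livers and 66.5 to 105 in the rest. Cyp2d9 was 30.7 to 56.2 against 132 to 205, and Elovl3, a fatty acid elongase, 3.11 to 9.67 against 46.4 to 119. These families hold near-identical copies, and how reads shared by copies were divided is not known. Of the 981 variable genes, 82 were higher and 45 lower in all 5 livers, and 854 overlapped between the sides.

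**Figure D3:**
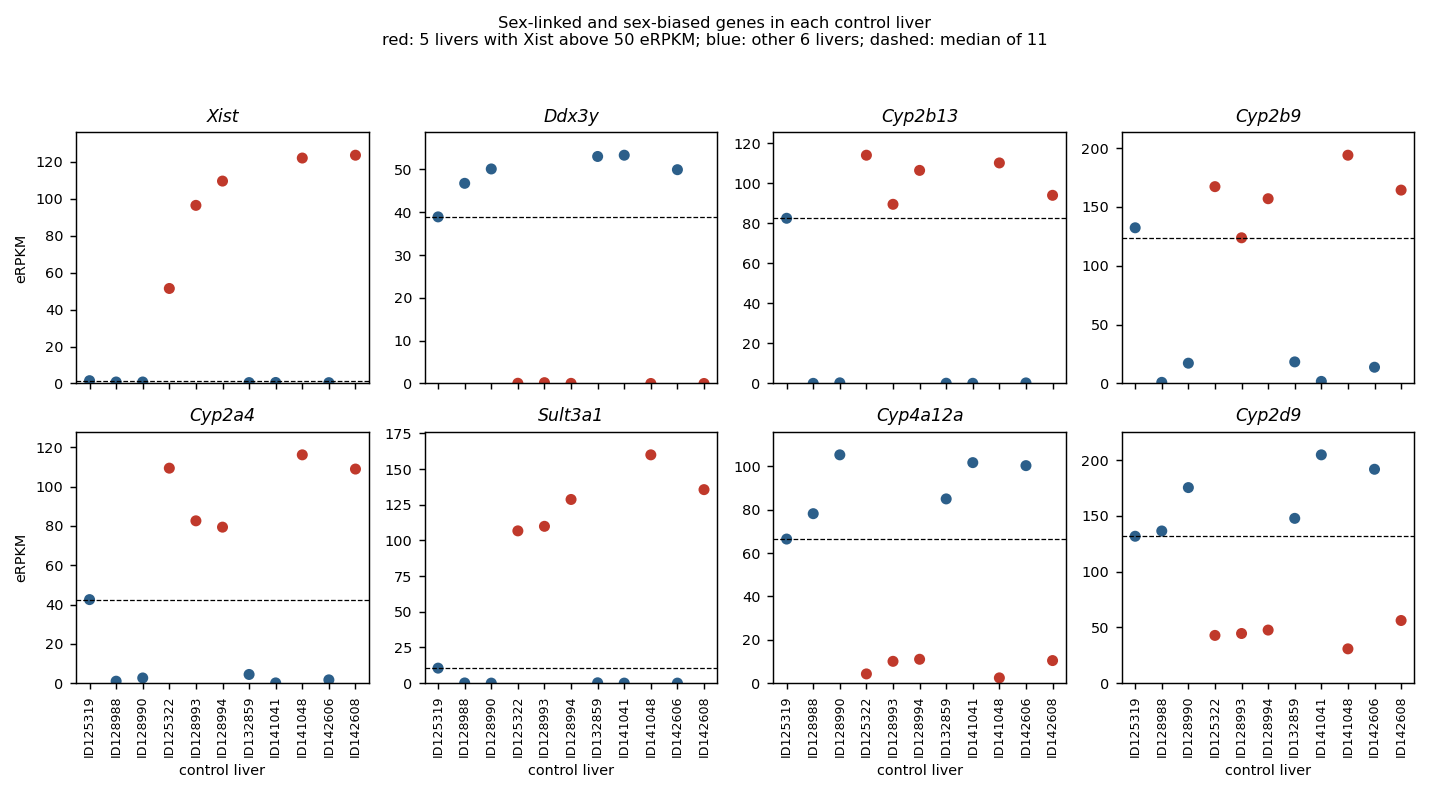
Each panel plots eRPKM (y axis) of 1 gene in each of the 11 control livers (x axis), red for the 5 livers with Xist above 50 eRPKM and blue for the other 6, with the median as a dashed line. In the panels of Cyp2b13, Cyp2b9 and Cyp2a4, the blue point of ID125319 lies far above the other 5 blue points.

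ID125319 crossed this split. It had Xist at 1.52 eRPKM, Ddx3y at 38.9 and Eif2s3y at 33.8. Cyp2b13, a cytochrome P450 typical of female liver, was nevertheless at 82.6 eRPKM there, against 0.0639 to 0.32 in the other 5 livers with low Xist and 89.6 to 114 in the 5 with high Xist. Cyp2b9 was at 132, inside the range of the livers with high Xist (124 to 194) and above the other 5 (0.958 to 18.3). A1bg at 71.4, Cyp2a4 at 42.5 and Hao2 at 43.3 lay between both ranges. Other genes of the female pattern were low there: Sult2a1 was listed at 0, and Cyp3a16 was at 0.578 against 3.40 to 75.6. The male-biased Cyp4a12a (66.5) and Cyp2d9 (132) stayed on the side of the livers with low Xist, although below the other 5 (78.2 to 105 and 137 to 205). Cyp7b1, a male-biased oxysterol hydroxylase, was at 31.0, within the 20.3 to 65.3 of the livers with high Xist. Of the listed genes, 22 were higher in the 5 livers with high Xist than in the 5 with low Xist other than ID125319, and for 3 of the 22 ID125319 lay within the range of the former. Over all variable genes this held for 27 of 109. On the lower side it held for 3 of 13 listed and 24 of 69 variable genes. With log2 Xist as a covariate, 28 of the 47 genes were still variable, against 7.01% of all genes.

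The imprinted RNA H19 and its neighbour Igf2, a growth factor of fetal liver, formed a separate pair that did not follow Xist. H19 ran from 0.189 to 43.6 eRPKM with a median of 16.8 and a spread ratio of 8.51. It was at 0.568 in ID132859, 1.05 in ID141048 and 0.189 in ID142608, and at 11.6 to 43.6 in the other 8 livers. Igf2 was lowest in the same 3 livers, at 0.263, 0.284 and 0.545 eRPKM, and at 1.48 to 7.03 in the rest. One of these livers had low Xist and the other two high Xist. H19 was still variable with depth as a covariate and without ID125322.

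Of 15 core clock genes, 13 passed the filter and 7 were variable, and of 15 output genes 14 passed and 9 were variable. Their median ratios were 2.49 and 2.37. Promoters are shown here for 3 clock genes, because they carry the motifs through which the clock is known to act. They are RefSeq windows of the build GRCm38.p6, from 250 bases before to 50 after the start site, with matches in capitals. Ciart (chr3:95882179-95882478, minus strand) holds 3 E-boxes, CACGTG, which Arntl and Clock bind. Per3 (chr4:151044616-151044915, minus strand) holds 2 D-boxes, TTATGTAA, the kind of site bound by Dbp and Tef. Arntl (chr7:113207261-113207560, plus strand) holds 1 match to TAGGTCA, the core of the element bound by Nr1d1.
Ciart: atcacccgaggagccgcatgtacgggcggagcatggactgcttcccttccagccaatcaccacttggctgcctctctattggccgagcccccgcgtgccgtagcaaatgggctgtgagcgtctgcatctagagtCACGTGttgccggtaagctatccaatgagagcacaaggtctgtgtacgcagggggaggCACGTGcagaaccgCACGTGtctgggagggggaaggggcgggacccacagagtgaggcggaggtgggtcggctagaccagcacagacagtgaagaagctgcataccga
Per3: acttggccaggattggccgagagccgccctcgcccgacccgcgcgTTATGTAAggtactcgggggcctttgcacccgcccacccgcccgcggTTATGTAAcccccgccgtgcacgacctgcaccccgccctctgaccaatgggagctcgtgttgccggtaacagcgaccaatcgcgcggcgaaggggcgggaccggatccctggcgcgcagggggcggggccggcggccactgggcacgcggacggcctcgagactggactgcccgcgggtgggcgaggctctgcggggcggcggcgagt
Arntl: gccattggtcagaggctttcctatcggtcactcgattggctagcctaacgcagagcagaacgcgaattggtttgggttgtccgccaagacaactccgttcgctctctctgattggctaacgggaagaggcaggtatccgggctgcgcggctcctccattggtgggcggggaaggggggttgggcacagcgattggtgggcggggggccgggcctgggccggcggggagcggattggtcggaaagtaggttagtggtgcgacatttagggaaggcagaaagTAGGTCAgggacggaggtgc
Both strands were searched, and no matches overlap. The E-box stands in 7.15% of all 32851 promoter windows, the D-box in 0.938% and TAGGTCA in 2.61%. Counted by gene, with a match in any of its windows, the shares are 8.09%, 1.11% and 2.97%. Of 13 clock genes looked up, 10 were in the promoter table: Per1, Ciart, Tef and Cry1 had an E-box, only Per3 the D-box and only Arntl TAGGTCA. A match is a description of the sequence and not a binding site.

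ID125319 and ID132859 were set apart in these genes. Dbp, the D-box factor, ran from 15.7 to 48.3 eRPKM with a median of 39.9. It was at 16.2 and 15.7 in ID125319 and ID132859, and at 35.6 to 48.3 in the other 9. Per3, a repressor of the clock, was at 11.2 and 11.0 in this pair and at 22.7 to 43.7 in the other 9, and Tef, the partner of Dbp, at 40.9 and 41.7 against 49.5 to 75.2. Ciart, a repressor with the 3 E-boxes shown, was lowest in the same livers, at 3.45 and 2.78, with ID125322 close to them at 3.77. Usp2, a ubiquitin protease under clock control, was at 1.83 and 2.53 there and highest in ID128994, at 20.6 eRPKM, an 11.3-fold range. Arntl ran the other way, from 0.998 to 9.76 eRPKM with a median of 1.84. It was highest in ID125319 (9.76), ID132859 (6.21) and ID125322 (5.76). Nr1d1, a repressor of Arntl, followed neither: it was highest in ID128988 at 77.4 eRPKM and lowest in ID125322 at 31.6.

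Among 35 gene pairs chosen from textbook relations, 19 were correlated over the 11 livers by r at an adjusted p under 0.05, 15 of them positively, and 10 of the 19 also by rho. A single adjusted p beside both is that of r, and that of rho is given where it fell on the other side of 0.05. Arntl and its paralog Npas2 had r = 0.94 and rho = 0.83 (permutation, adjusted p = 0.000875), and r was 0.86 without the 2 livers farthest from the median of Arntl. Npas2 is low, at 0.0412 to 1.59 eRPKM. Arntl and Dbp had r = -0.81 and rho = -0.57 (permutation, adjusted p = 0.0075 for r and 0.154 for rho), and r was -0.50 without ID125319 and ID132859. Dbp and Per3 had r = 0.88 and rho = 0.41 (permutation, adjusted p = 0.0196 and 0.277), and r was 0.06 without those livers, so the relation rests on them. Its adjusted p was 0.085 without ID125319 and 0.082 without ID132859. The value without this pair of livers was also lower for Dbp with Tef and with Usp2. Dbp and Tef had r = 0.86 and rho = 0.44 (permutation, adjusted p = 0.0075 and 0.246), and r was 0.42 without them. Dbp and Usp2 had r = 0.82 and rho = 0.50 (permutation, adjusted p = 0.00985 and 0.206), and r was 0.34. Across all genes, limma found 0 genes (0.0%) moving with Dbp, with 676 at an unadjusted p under 0.05. It found 2 genes without ID142606. With log2 Xist as a covariate it found 3 genes (0.0231%): Nt5e, Per3 and 9030619P08Rik.

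**Figure D4:**
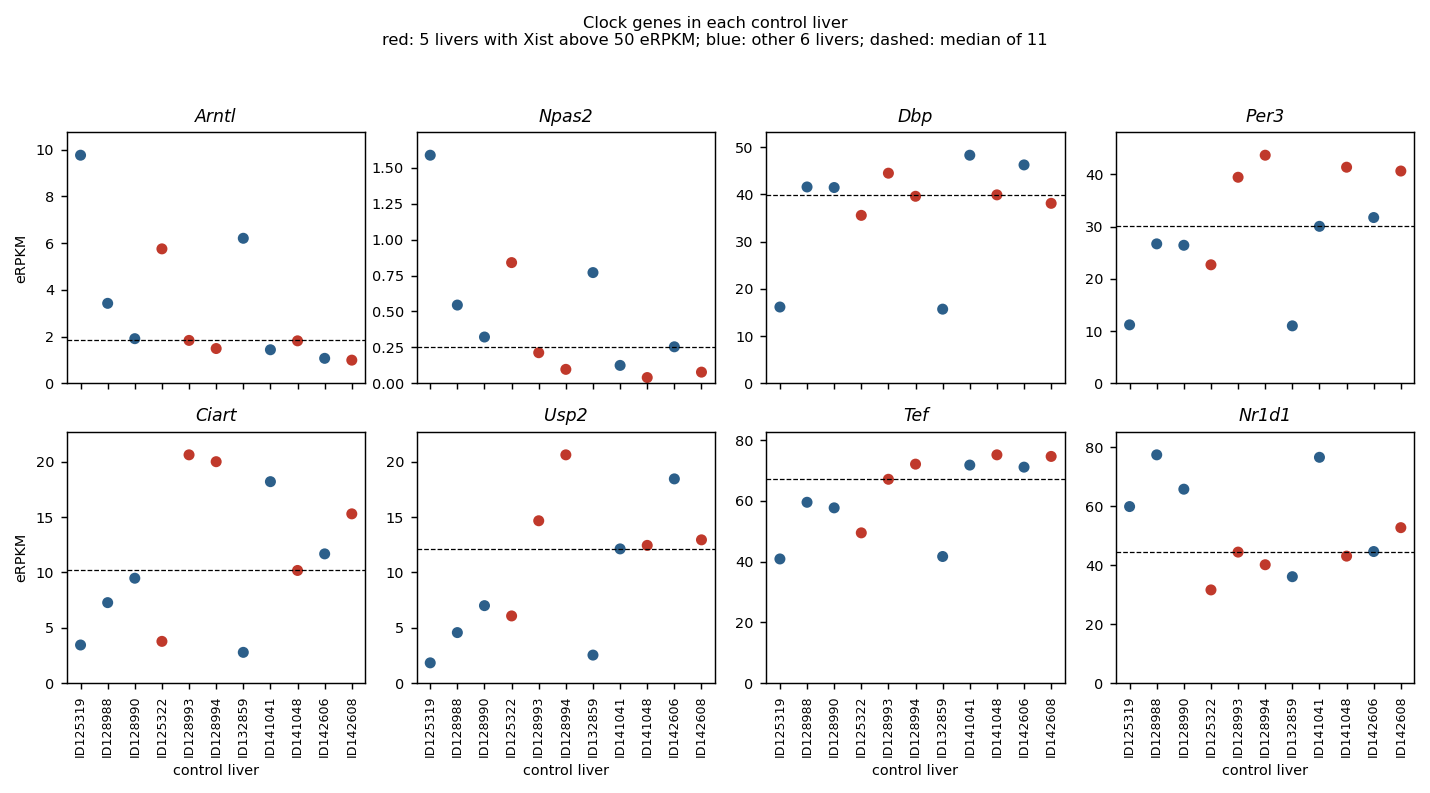
Each panel plots eRPKM (y axis) of 1 clock gene in each of the 11 control livers (x axis), red for the 5 livers with Xist above 50 eRPKM and blue for the other 6, with the median as a dashed line. ID125319 and ID132859 are the 2 lowest points for Dbp, Per3 and Tef and the 2 highest for Arntl.

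Genes of cholesterol synthesis differed together. Of 24 listed genes, 23 passed the filter and 12 were variable, with a median ratio of 2.35. Sqle, squalene epoxidase, ran from 11.2 to 82.8 eRPKM with a median of 49.1. It was lowest in ID142606 (11.2) and ID132859 (22.8) and highest in ID128993 (82.8). Pmvk, phosphomevalonate kinase, had 9.89 and 20.6 eRPKM in those first 2 livers and 21.5 to 53.1 in the other 9. Nsdhl, a later enzyme of the pathway, was at 7.84 in ID142606 and 53.2 in ID128990.

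In limma 21 genes (0.162%) moved with Sqle, all upward. They included 11 of the other 22 genes of the list, among them Fdps, Fdft1, Lss, Cyp51, Nsdhl, Msmo1, Dhcr7, Mvd and Pmvk. Nsdhl rose by 0.91 log2 units per log2 unit of Sqle (limma, adjusted p = 0.00899), Pmvk by 0.80 and Cyp51, lanosterol demethylase, by 0.50 (limma, adjusted p = 0.01 for both). Among the other 10 were Pgd, which makes NADPH, and Acss2 and Acacb of acetyl-CoA use. The count of 21 genes was 0 without ID142606, 7 without ID128993 or ID132859, 13 without ID128990 and 38 without ID125322. Hmgcs1, another enzyme of the pathway, was listed at 0 to 0.0793 eRPKM in all livers and was not among the 23.

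The list of fatty acid synthesis in fed liver had 4 of 20 genes variable. Pnpla3, a lipase of lipid droplets, stood out in it, with 0.478 to 34.8 eRPKM and a median of 5.16. Its highest values were in ID128993 (34.8) and ID128994 (25.9), where Elovl6, a fatty acid elongase, was also highest (106 and 97.5 eRPKM, median 50.7). Srebf1, the lipogenic regulator, was 104 to 145 eRPKM and not variable. Fasn and Acly, consecutive enzymes of fatty acid synthesis, had r = 0.83 and rho = 0.82 (permutation, adjusted p = 0.0075).

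Targets of Ppara, the fatty acid sensor of the fasting liver, had 10 of 18 genes variable and a median ratio of 2.45. Cyp4a14, a microsomal fatty acid hydroxylase, ran from 3.22 to 104 eRPKM with a median of 62.9, a 32.3-fold range. It was at 3.22 in ID128988, 3.30 in ID141041 and 13.8 in ID128990, and at 55.2 to 104 in the other 8 livers. These 3 livers all had low Xist, while the other 3 livers with low Xist were at 55.2 to 104. Its paralog Cyp4a10 was lowest in the same 3 livers, at 4.02, 8.98 and 26.6 eRPKM. The pair had r = 0.96 and rho = 0.79 (permutation, adjusted p = 0.00175), with r = 0.90 without the 2 farthest livers. Reads shared by these paralogs may be split between them in an unknown way. In limma 5 genes (0.0386%) moved with Cyp4a14: Cyp4a10, Acnat2, Cyp2b9, Cers6 and Gypc. The count was 26 without ID142606, and 1 to 3 without any one of the others except ID125319 and ID132859. Cyp2b10, a target of the xenobiotic receptor CAR, was also lowest in ID128988, at 1.2 eRPKM, with a median of 24.4 and a highest value of 69.2.

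The fasting list had 6 of 14 genes variable, with a median ratio of 1.60. G6pc and Pck1, the gluconeogenic enzymes, ran from 92.9 to 143 and from 124 to 236 eRPKM, and neither was variable. All 449 genes with a mean above 100 eRPKM, Pck1 among them, had over 400 reads per kb, where the ceiling compresses differences. Pck1 was lower in deeper libraries (limma, slope -1.03 log2 units per doubling, adjusted p = 0.00551), while G6pc was not associated with depth (limma, adjusted p = 0.891). Igfbp1, which binds insulin-like growth factors, was variable, with 53.6 eRPKM in ID125322, 39.6 in ID142608, 30.6 in ID125319 and a median of 11.7. In limma 0 genes (0.0%) moved with it, with 1506 at an unadjusted p under 0.05; it was 1 gene without ID128990 and 2 without ID128994. Pdk4, which shuts pyruvate dehydrogenase in fasting, ran from 1.54 to 17.6 eRPKM with a median of 6.42. It was highest in ID128988 (17.6) and ID125319 (14.6) and lowest in the 4 shallowest libraries (1.54 to 3.44). Pdk4 was itself associated with depth (limma, slope 3.43 log2 units per doubling, adjusted p = 0.00723). Angptl4, a fasting-induced inhibitor of lipoprotein lipase, was correlated with it negatively (r = -0.73, rho = -0.71, permutation adjusted p = 0.0269 for r and 0.055 for rho), and with depth as a covariate r was -0.47 (permutation, adjusted p = 0.215). In limma 374 genes (2.89%) moved with Pdk4, and 0 did with depth as a covariate. The count was 1887 without ID125322, 0 without ID125319, ID141048 or ID142608, 1 without ID128988, 2 without ID128993, 18 without ID132859, 21 without ID128994 and 52 without ID141041. The adjusted p of Pdk4 and Angptl4 ran from 0.052 to 0.1 without any one of ID125319, ID128988, ID141041, ID142606 and ID142608.

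**Figure D5:**
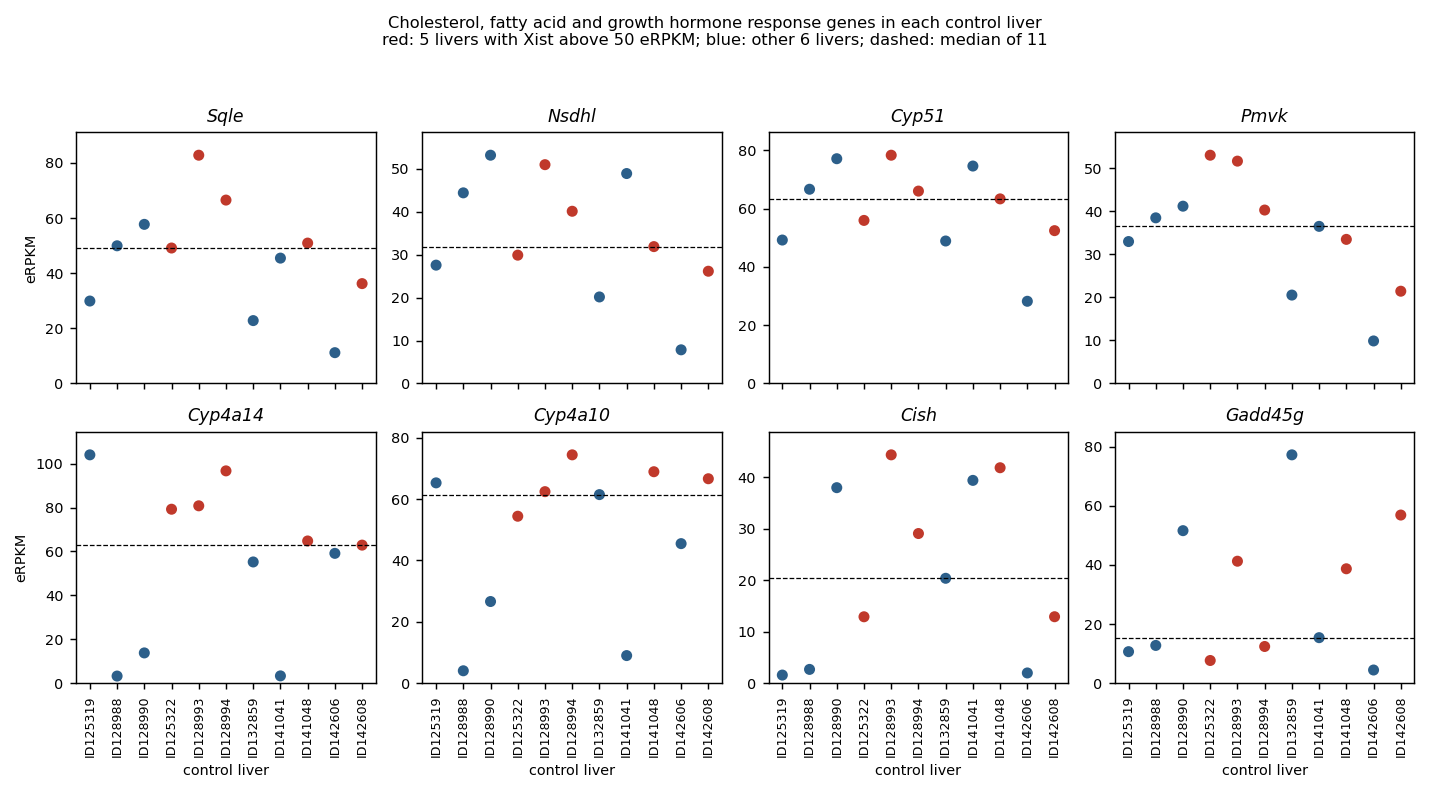
Each panel plots eRPKM (y axis) of 1 gene in each of the 11 control livers (x axis), red for the 5 livers with Xist above 50 eRPKM and blue for the other 6, with the median as a dashed line. Sqle, Nsdhl, Cyp51 and Pmvk have their 2 lowest points in ID142606 and ID132859. Low points are also seen for Cyp4a14 and Cyp4a10 in ID128988 and ID141041, and for Cish in ID125319, ID128988 and ID142606.

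Genes that answer growth hormone differed by liver. Of the 13 listed, 0 were higher and 0 lower in all 5 livers with high Xist than in the rest. Cish, a feedback inhibitor induced by Stat5, ran from 1.56 to 44.3 eRPKM with a median of 20.3 and a ratio of 7.49. It was at 1.56 in ID125319, 2.66 in ID128988 and 1.97 in ID142606, and at 12.9 to 44.3 in the other 8. The first 3 livers all had low Xist, while the other 3 livers with low Xist were among the 8. Bcl6, a repressor that opposes Stat5, was highest in ID125319, ID128988 and ID142606, at 34.7, 49.1 and 42.2 eRPKM, and at 13.4 to 28.0 in the others. Onecut1, a hepatic transcription factor, was at 18.1, 28.4 and 19.9 eRPKM in them and at 20.4 in ID125322, and at 35.1 to 58.1 in the other 7. Of 13 listed genes, 6 were variable, with a median ratio of 1.72. Socs2 and Igf1, both growth hormone targets, were not correlated at the threshold (r = 0.44, rho = 0.49, permutation adjusted p = 0.26).

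Immediate early genes had 8 of 21 members variable. Myc, the gene whose transgene drives the tumours of the series, ran from 1.46 to 18.2 eRPKM in the controls with a median of 5.56. It was highest in ID128993 (18.2) and ID128990 (10.7) and lowest in ID125319 (1.46) and ID128988 (1.93). Gadd45g, a growth arrest gene, ran from 4.44 in ID142606 to 77.3 in ID132859, a 17.4-fold range. Egr1, an early transcription factor, ran from 1.71 in ID141041 to 17.7 in ID125322. Fos was low, at 0.836 to 2.03 eRPKM, and not variable, with counting giving 64.2% of its variance. Fos and Egr1 had r = 0.75 and rho = 0.65 (permutation, adjusted p = 0.0196 and 0.0894), and the adjusted p for r was 0.086 without ID141041. In limma 0 genes (0.0%) moved with Fos, with 460 at an unadjusted p under 0.05; it was 1 gene without ID128993.

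Metallothioneins Mt1 and Mt2, which bind zinc and copper, gave the closest of the stress pairs. Their promoters are shown because the metal factor Mtf1 is known to act on both through the elements TGCGCNC and TGCACNC, here in capitals. The windows are RefSeq GRCm38.p6, chr8:94178839-94179138 for Mt1 and chr8:94172368-94172667 for Mt2, both on the plus strand.
Mt1: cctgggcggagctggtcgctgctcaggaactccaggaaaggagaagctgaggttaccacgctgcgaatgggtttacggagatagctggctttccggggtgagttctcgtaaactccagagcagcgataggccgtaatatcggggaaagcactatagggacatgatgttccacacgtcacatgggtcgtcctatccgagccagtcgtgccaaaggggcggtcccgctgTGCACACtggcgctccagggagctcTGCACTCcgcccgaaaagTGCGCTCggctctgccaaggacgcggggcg
Mt2: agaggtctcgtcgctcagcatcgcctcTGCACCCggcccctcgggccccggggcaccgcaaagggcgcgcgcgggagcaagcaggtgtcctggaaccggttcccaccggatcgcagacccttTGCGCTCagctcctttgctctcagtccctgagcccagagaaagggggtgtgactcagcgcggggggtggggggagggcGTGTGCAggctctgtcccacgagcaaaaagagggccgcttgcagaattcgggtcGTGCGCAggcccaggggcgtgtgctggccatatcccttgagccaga
On both strands together, Mt1 has 1 match to TGCGCNC and 2 to TGCACNC, and Mt2 has 2 of each. Of all promoter windows, 15.4% hold TGCGCNC and 12.6% TGCACNC, and of all genes 17.0% and 14.2% do in any window. The sterol element TCACNCCAC was in 1 of the 16 cholesterol genes that had a promoter window, Hmgcs1 (1.24% of all windows and 1.44% of all genes).

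Mt2 ran from 16.2 to 131 eRPKM with a median of 46.7, and Mt1 from 28.4 to 101 with a median of 48.7. Both were highest in ID141048 and ID142608 and lowest in ID128990. They had r = 0.96 and rho = 0.89 (permutation, adjusted p = 0.000175), with r = 0.89 without the 2 farthest livers. In limma Mt1 rose by 0.63 log2 units per log2 unit of Mt2 (adjusted p = 0.0032), and it was 1 of 6 genes (0.0463%) and the only one upward (0.00772%). The other 5 (0.0386%), Ces2c, Serinc2, Aox1, Csad and Fitm1, fell with Mt2. The count was 0 without ID141048, 1 without ID128990 or ID142608 and 3 without ID128994, ID132859 or ID141041.

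Acute phase genes had 8 of 26 members variable. Orm2, orosomucoid, ran from 7.28 to 25.8 eRPKM with a median of 17.0, and Lcn2, an iron-sequestering lipocalin, from 4.72 to 23.8 with a median of 10.6. They had r = 0.83 and rho = 0.81 (permutation, adjusted p = 0.0075). Lcn2 was higher in all 5 livers with high Xist (11.7 to 23.8) than in the other 6 (4.72 to 10.6), and Saa1, serum amyloid A, was lower in all 5 (29.6 to 49.5 against 63.6 to 94.3). With log2 Xist as a covariate r of Orm2 and Lcn2 was 0.58 (permutation, adjusted p = 0.112), so the call ended. In limma 40 genes (0.309%) moved with Orm2, 11 of them from the sex-biased list (4 with median-ratio scaling and 3 with quantile normalisation), and 0 did with Xist as a covariate. The count of 40 was 107 without ID142606, 92 without ID125319, 25 without ID128993, 19 without ID128990, and 1 or 2 without ID128988, ID128994, ID132859, ID141041, ID141048 or ID142608. Hspa1b, an inducible heat shock protein, was 2.53 to 4.57 eRPKM in the 5 livers with high Xist and 6.0 to 12 in the other 6. Of the 99 genes (0.764%) that moved with it in limma, 20 were of the sex-biased list and with Xist as a covariate the count was 0. It was 342 without ID125322, 170 without ID125319, and 35 to 54 without any one of ID128988, ID128990, ID128994, ID132859, ID141048 and ID142608. Hspa1a and Hspa1b are near-identical copies and their reads are uncertain. Hspa1b and Dnajb1, also of the heat shock list, had r = 0.30 and rho = 0.45 (permutation, adjusted p = 0.48). With log2 Xist as a covariate r was 0.94 (permutation, adjusted p = 0.000525).

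Of the interferon-stimulated genes 4 of 39 were variable (10.3%, against 7.57% of all genes), with a median ratio of 1.42. The lists of immune cells had 0 of 14 genes variable for T and NK cells, 2 of 14 for MHC class II and B cells, 2 of 19 for Kupffer cells and 4 of 12 for neutrophils and monocytes. Ifit1, an interferon-induced RNA sensor, ran from 4.03 to 14.8 eRPKM with a median of 8.01, and was highest in ID128994 and ID128993. In limma 0 genes (0.0%) moved with it and 913 had an unadjusted p under 0.05; without ID125322 it was 53 genes. Cd74, the invariant chain of MHC class II, ran from 35.0 to 94.2 eRPKM with a median of 55.4 and was highest in ID125322. Its partner H2-Aa ran from 9.58 to 21.3, and the pair had r = 0.73 and rho = 0.75 (permutation, adjusted p = 0.0244), with r = 0.96 without ID125322 and ID142608. With depth as a covariate r was 0.46 (permutation, adjusted p = 0.215) and the call ended, as it did with median-ratio scaling (r = 0.65, permutation adjusted p = 0.0706). Its adjusted p was 0.096 without ID142606 and 0.193 without ID142608. In limma 1825 genes (14.1%, and 10.1% upward) moved with Cd74, among them 16 of 23 endothelial and 8 of 19 Kupffer cell genes upward. The direction of the whole depended on the scaling: 1303 genes rose and 522 fell as deposited, 626 rose and 1035 fell with median-ratio scaling, and 163 rose and 157 fell with quantile normalisation. Endothelial genes upward were then 8 and 4, and Kupffer cell genes 5 and 4. The count of 1825 was 21 without ID125322, 1150 without ID141041 and 0 with depth as a covariate.

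Of 11 marker lists of cells other than hepatocytes, 6 had their highest sum in ID125322, and so did 12 of all 38 lists. Marco, a scavenger receptor of macrophages, was at 20.1 eRPKM there and at 2.03 to 4.98 in the other 10 livers. The collagens Col3a1 and Col4a1 of stellate and endothelial cells were at 60.7 and 62.8 there, against medians of 23.2 and 22.9. Col1a1 and Col3a1 had r = 0.92 and rho = 0.70 (permutation, adjusted p = 0.0075 for r and 0.055 for rho), but r was 0.23 without ID125322 and ID142606, and the adjusted p was 0.052 without the first alone and 0.065 without the second alone. The summed stellate and matrix list ran from 356 to 515 eRPKM over the livers with a median of 394.3, the Kupffer cell list from 483 to 727 with a median of 570 and the endothelial list from 414 to 712 with a median of 493, and all 3 sums were highest in ID125322. The MHC class II, neutrophil and cholangiocyte lists were highest there as well. The T and NK cell list was at 37.3 eRPKM in that liver, below the 40.6 of ID125319, and the erythroid list at 103, within a range of 75.1 to 132 over the livers. The adipose and mesothelium list was below its median there (127 against 141). In bulk tissue, more cells of a type and more RNA per cell cannot be told apart, and the part of these cells in the results for ID125322 was not tested. Of 23 endothelial genes 7 were variable, and 0 with depth as a covariate, where 8.73% of all genes were.

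The list of cell division genes summed to 116 eRPKM in ID128993, 72.7 in ID125319 and 70.4 in ID128994, and to between 33.8 and 51.6 in the other 8 livers. Mcm5, a subunit of the replicative helicase, ran from 0.900 to 15.8 eRPKM with a median of 1.78, and ID128993 held the highest value. Mcm2 and Mcm6 were also highest there, at 16.0 and 11.2 eRPKM against medians of 3.01 and 0.946. Mki67 and Top2a, markers of dividing cells, had r = 0.93 and rho = 0.91 (permutation, adjusted p = 0.000175), and r = 0.89 without the 2 farthest livers. They were highest in ID128993 (7.95 and 5.94 eRPKM). In limma 3 genes (0.0231%) moved with Mki67: D430020J02Rik, Nqo1 and Top2a. The count was 14 without ID125322, 1 without ID125319 and 0 without any other liver. Of 20 genes listed for division, 6 were variable, and 4 with depth as a covariate. ID128993 was also the deepest library, at 8.95 M reads. In limma 2 of the 20 were higher in deeper libraries at an adjusted p under 0.05, against 9.91% of all genes. Mcm2 had r = 0.75 with log2 depth (limma, adjusted p = 0.0297) and Mki67 r = 0.63 (limma, adjusted p = 0.0872). The part of depth in the values of ID128993 was not tested. Alas2, the first enzyme of heme synthesis in red cell precursors, ran from 11.4 to 31.9 eRPKM with a median of 26.3, and in limma 17 genes (0.131%) moved with it. That count was 176 without ID125322 and between 3 and 10 without any other liver. Alas2 and Slc4a1, the anion exchanger of red cells, had r = 0.67 and rho = 0.48 (permutation, adjusted p = 0.049 and 0.211), and the adjusted p for r was 0.057 to 0.272 without any one of 8 livers, the 3 exceptions being ID128994, ID132859 and ID141041. It was 0.0928 with depth and 0.161 with log2 Xist as a covariate, 0.0706 with median-ratio scaling and 0.0546 with a pseudocount of 1. Cyp7a1, the rate-limiting enzyme of bile acid synthesis, and Nr0b2, its repressor, ran in opposite directions (r = -0.83, rho = -0.85, permutation adjusted p = 0.0075), and r was -0.68 without the 2 farthest livers. Cyp7a1 was lowest in ID128988 (36.9 eRPKM) and highest in ID142608 (101), and Nr0b2 was highest in ID128988 (93.1).

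When the variable genes other than small RNAs were grouped by likeness over the livers (average linkage, r of at least 0.5), 14 sets of 10 or more genes resulted. These sets describe the genes used to make them and are not a test. The first held 139 genes, 24 of them from the sex-biased list, and its mean profile had r = 0.94 with log2 Xist. The third held 124 genes low in ID125322. A set of 51 genes held 11 of cholesterol synthesis and 5 of division, and a set of 18 held 4 core clock and 3 output genes, among them Dbp, Per2, Per3, Ciart, Wee1, Usp2 and Bhlhe40. A set of 12 held Cish, Onecut1 and Myc. With log2 Xist as a covariate and without ID125322, the first set held 464 genes with r = 0.965 to log2 depth, including 12 endothelial genes and 35 histone genes, and cholesterol synthesis again stood together with 13 genes in a set of 63.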

How the data were processed

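The authors deposited exonic RPKM values for 21671 genes in 46 columns. Per the submitters' processing notes, reads were handled with TopHat and TopHat2 2.0.8 on mm9. How reads were counted, with which gene models, and what became of duplicate or shared reads was not given in the sources used here. RNA was depleted of ribosomal RNA and libraries came from an unstranded kit, per the labels' protocols. RPKM steps gave whole reads for 20786 genes (100.0% of values within 0.001). The library size implied by these steps served as depth. A count is limited by reads and by the ceiling described in the report.

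Only the 11 control columns were used. Values were taken as log2(eRPKM + 0.5), and genes reaching 1 eRPKM in 3 livers or more were kept, which removed 8710. Fold differences of low genes are understated on this scale. The running median SD used 400 genes. Counting variance came from the recovered reads. Regressions on log2 depth, ID block (its leading 3 digits) and 14 anchor genes were made in limma 3.58.1 (R 4.3.3) with a mean-variance trend and Benjamini-Hochberg adjustment over all genes kept. The 35 pairs were tested with 100000 two-sided permutations, adjusted over the pairs for r and for rho separately. Python 3.11.15, numpy 2.4.6, scipy 1.17.1 and pandas 2.3.3 were used. Methods were tested on simulated data.

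Genes named were those of the highest spread ratio in each band of level, the 6 lowest above 20 eRPKM, anchors and pairs, their closest genes, up to 4 variable members of each of 38 lists, Xist, the Y-linked genes and Myc. Further members of lists, genes of ID125322 and ID128988, and identity markers were named after their values were seen. The lists, anchors and pairs were chosen with earlier results of these data known. Promoter windows are of GRCm38.p6, a build other than that of the files, and were matched by symbol. Some members of these lists are not reported here. Alternatives were another pseudocount, filter, scaling, covariate, window and threshold, and leaving out each liver.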

Additional observations from a re-analysis of the deposited data

How the results depend on the processing

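The 981 variable genes became 2329 at a ratio of at least 1.5 and 333 at a ratio of at least 3, and lay between 970 and 1190 with 1 liver left out. Of 6224 alternatives for 267 single results, 5888 kept their side of the threshold. Most of these results were spread ratios, which have no sign and could not reverse. The sign of r did change for some pairs that were not called. Saa1 and Lcn2 went from r = -0.61 to 0.48 with log2 Xist as a covariate, and Arntl and Nr1d1 from -0.16 to 0.03 without ID125322. Counts of genes from limma moved more, and the cause was not tested. With quantile normalisation the counts were 153 for depth (1605), 3 for Alas2 (17), 320 for Cd74 (1825), 0 for Pdk4 (374) and 0 for Mki67 (3), main counts in brackets. With median-ratio scaling they were 8 for Alas2, 0 for Pdk4 and 0 for Mki67. With a pseudocount of 0.1 they were 9 for ID blocks (5), 9 for Alas2, 20 for Orm2 (40) and 0 for Mki67, and with a pseudocount of 1 they were 0 for Mki67. Without a filter they were 13 for ID blocks, 1 for Cyp4a14 (5), 13 for Orm2, 29 for Pdk4 and 0 for Mki67, and with at least 5 eRPKM 3 for ID blocks. With depth as a covariate they were 2 for ID blocks, 40 for Alas2, 0 for Cd74, 1 for Cyp4a14, 262 for Hspa1b (99), 78 for Orm2, 0 for Pdk4 and 0 for Mki67. With log2 Xist as a covariate they were 32 for ID blocks, 1136 for Alas2, 3 for Dbp (0), 0 for Hspa1b, 1 for Igfbp1 (0), 1 for Mt2 (6), 0 for Orm2 and 0 for Mki67. The next alternatives, and one restricted to genes under 400 reads per kb, were chosen after seeing the data. With Xist and depth together the counts were 0 for ID blocks, Alas2, Cd74, Mt2, Orm2, Pdk4 and Mki67, 3 for Cyp4a14, 1 for Hspa1b and 1 for Igfbp1. With Xist as a covariate and without ID125322 they were 3711 for depth, 8 for ID blocks, 0 for Alas2, 165 for Cd74, 4 for Dbp, 0 for Hspa1b, 429 for Mki67, 1 for Mt2, 0 for Orm2, 2298 for Pdk4 and 41 for Sqle (21). With 1 liver left out the counts ran from 769 to 2675 for depth, 0 to 8 for ID blocks, 0 to 2 for Dbp, 1 to 107 for Orm2, 0 to 1 for Fos, 35 to 342 for Hspa1b, 0 to 6 for Mt2, 0 to 53 for Ifit1, 21 to 1977 for Cd74, 0 to 38 for Sqle, 0 to 1887 for Pdk4, 1 to 26 for Cyp4a14, 0 to 2 for Igfbp1, 0 to 14 for Mki67 and 3 to 176 for Alas2, and 14 to 18 of the 35 pairs passed. The likeness within ID blocks minus that between them (0.0445) was 0.165 with Spearman correlations (permutation p = 0.0714), -0.0685 over variable genes only, -0.104 with depth as a covariate and 0.285 with Xist as a covariate. No paired analysis was possible because there is 1 group only. Depth limits genes below about 1 eRPKM.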
